A study of Mus musculus with 28 samples.

Results

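Cytosolic ribosomal protein genes were taken by name, as the protein-coding genes whose symbols begin with Rpl or Rps and a digit, together with Rplp0, Rplp1, Rplp2 and Rpsa, and without the Rps6k kinases. The rule found 94 of the 41549 genes counted, 57 named for the large and 37 for the small ribosomal subunit, spread over 20 chromosomes. Because it reads names only, the rule also takes paralogs such as Rpl22l1 and Rps27l, 7 genes named as pseudogenes but listed as protein-coding, and Rps19bp1, which encodes a binding partner of Rps19 and no subunit. It leaves out genes such as Fau and Rack1, which encode subunits under other names.

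The libraries were made from RNA of nuclei sorted from the motor cortex of 7 mice. The study's title names the aim, knockdown of chosen microRNAs in the rodent brain with Cas9 and adeno-associated vectors. Each mouse received both AAV-Cas9-miR-124-empty, on the left, and AAV-Cas9-miR-124-g4, on the right, which are called empty and g4 here. Vector and side of the brain therefore cannot be told apart. Tissue was fixed with paraformaldehyde, and nuclei were stained for the HA tag of Cas9 and sorted into an HA-positive and an HA-negative fraction, so that the 4 groups of 7 libraries (each vector in each fraction) come from the same animals. The sources used here do not state strain, genotype, age, the interval after injection, the promoter that drives Cas9 or what g4 stands for. All 4 groups come from tissue injected with a Cas9 vector, and an uninjected group is not analysed here.

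A ribosome holds a single copy of most of its proteins, so cells make these proteins in step with each other and with ribosomal RNA. In mammals their messenger RNAs begin with a C and a tract of pyrimidines, the 5′ terminal oligopyrimidine (TOP) motif, through which mTOR signalling and the binding protein Larp1 control their translation. Neurons need ribosomes for synapse growth and for protein synthesis in axons and dendrites. The libraries here measured RNA in nuclei, where newly made transcripts and snoRNA-bearing introns are abundant, and not the translated messenger RNA of the cytoplasm.

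The starts of these genes carry the sequence that the TOP motif is read from. RefSeq start sites on GRCm38.p6 were matched by symbol for 67 of the 94 genes, with 79 annotated starts between them. The windows below run from 20 bases before the annotated start to the start and the 9 bases after it, and capitals mark the longest run of C and T. The first 5 show clear pyrimidine runs across the start.
Rps6 (chr4:86857358-86857387, minus strand): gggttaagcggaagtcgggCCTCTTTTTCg
Rplp2 (chr7:141447631-141447660, plus strand): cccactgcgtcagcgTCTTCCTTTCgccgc
Rpl38 (chr11:114668560-114668589, plus strand): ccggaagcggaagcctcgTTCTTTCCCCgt
Rpl15 (chr14:18270977-18271006, minus strand): ggattgtgggagaaagCCTTCTTCCTTTCC
Rpl35 (chr2:39005122-39005151, minus strand): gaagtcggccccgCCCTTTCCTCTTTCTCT
The next 5 belong to genes whose values are described below and have no such run at the annotated start.
Rps28 (chr17:33824553-33824582, minus strand): TCCTgggtaccgcgtgcggtctcgcgagag
Rpsa (chr9:120127746-120127775, plus strand): tggctgtgggttatttaaggacgtcaTTTC
Rpl27 (chr11:101442225-101442254, plus strand): ccggaacgctctgTTCCTgtctgctgctcg
Rpl11 (chr4:136053384-136053413, minus strand): gCCTCCTgacccataaggccacggggccgg
Rpl5 (chr5:107900508-107900537, plus strand): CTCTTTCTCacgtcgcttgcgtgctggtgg
A C at the annotated start followed by at least 4 pyrimidines on the gene's strand was found at 14 of the 79 starts (17.7%), against 2.51% of 32851 starts of all genes in the same table. A run of at least 8 pyrimidines that begins with C within 30 bases of the start was found at 37 (46.8%), against 18.2%. The letters CGGAAG, which ETS-family factors recognise, were found on either strand of the 300 bases around the start in 47 (59.5%), against 16.9%. Its reverse complement CTTCCG can overlap a pyrimidine run. In Rpl5 the run of 9 pyrimidines lay before the annotated start. Such matches describe the annotated letters only, since start sites were not measured in these libraries.

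The 28 libraries held 248612 to 902944 counts each and detected 8687 to 13668 genes. Ribosomal RNA took 16.55 to 39.64% of the counts. Transcripts of 4 Y-linked genes were found in animals 17 to 20 and Xist in animals 21 to 23. In HA-positive nuclei with g4, however, the animal 19 library had 591 counts of Xist beside 44 of the Y-linked genes, where no other library with Xist had more than 2 Y-linked counts. It was also the deepest library and had 1215 CPM (counts scaled to 1e6 per library) of summed oligodendrocyte markers, against a group median of 124.3. Mean levels of ribosomal protein genes, marker sums, refitted fold changes and their medians are given both ways where they move by over 1.5 times without it. The miR-124 hairpin gene Mir124a-2 had 0 to 30 counts in g4 HA-positive libraries, with 1 of 7 at 0, and 0 in the other 21. HA-positive nuclei were rich in markers of inhibitory neurons (summed level 2400 ± 467 CPM with empty and 2150 ± 505 with g4, against 807 ± 89.8 and 758 ± 149 in HA-negative nuclei, SD, n = 7). They were poor in markers of oligodendrocytes (71.7 ± 24.9 and 275 ± 416 CPM against 1390 ± 253 and 1490 ± 377) and microglia (22.4 ± 12.8 and 62.9 ± 112 against 348 ± 105 and 422 ± 84.3). Without the animal 19 library the g4 HA-positive sums of these markers were 118 ± 35 and 21.1 ± 16.6 CPM (n = 6). Excitatory neuron markers were present in all 4 groups, at 1300 ± 401, 1560 ± 237, 1930 ± 249 and 1930 ± 226 CPM.

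Ribosomal protein genes took 68258 of 14988406 counts, 0.455% of the total. Counts above 0 were found for 89 of the 94, and 62 were detected in every library. Each library detected 76 to 85 of them. The 5 genes at 0 in every library were Rpl39l and Rpl3l, paralogs known from testis and striated muscle, Rps23rg1, a retrogene copy of Rps23, and the pseudogene-named Rpl36-ps4 and Rpl9-ps1. The limit that 3 counts over all libraries allow is 0.2 CPM. Rpl10l, another testis paralog, had 1 count in all, while its parent Rpl10 had 1291. The genes tested in at least 1 comparison had a median of 22.5 counts per library, and their counts varied 3.51 times as much within a group as counting error alone gives (median over 81 genes with a mean of at least 5 counts, highest 8.52). The same ratio was 3.36 over 8435 genes of all kinds.

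The summed level of the 94 genes lay in the same range in all groups. It ranged from 3311.8 to 5190.6 CPM in empty HA-positive libraries, with a median of 4497.7 and a mean of 4456 ± 584 (SD, n = 7). In g4 HA-positive libraries it ranged from 4319.9 to 4869.1, with a median of 4651.3 and a mean of 4628 ± 213 (4624 ± 233 without the library of animal 19). Empty HA-negative libraries lay between 4053.7 and 5136.7, with a median of 4567.5 and a mean of 4540 ± 368, and g4 HA-negative ones between 4395 and 5141.8, with a median of 4772.5 and a mean of 4735 ± 262. The groups overlapped in each of the 4 comparisons, and each mean difference within animals was smaller than its SD over the 7 animals (424 to 646 CPM). The g4 over empty ratio was 1.04 in both fractions, although with size factors by the relative log expression (RLE) method the HA-positive means were 4564 with g4 and 4575 with empty, and without the 4 HA-positive libraries under 10000 genes they were 4527 and 4648. The lowest library was the empty HA-positive one of animal 22, at 3311.8 CPM, which detected 9553 genes. Since whole nuclei were pooled, fewer nuclei of a type and less RNA per nucleus cannot be told apart in any of these levels.

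Within animals, the summed level was higher with g4 in 4 of 7 animals in HA-positive nuclei and in 5 of 7 in HA-negative nuclei. The mean difference was 172 CPM in HA-positive nuclei, with single animals from -412 to 1110. In HA-negative nuclei it was 195 CPM, from -742 to 910. Between fractions the mean difference (HA-positive minus HA-negative) was -83.7 CPM with empty and -107 CPM with g4, in both cases with animals on either side of 0. The direction of both fraction differences depended on the scaling. With RLE factors the empty means were 4575 and 4522, and with plain library sizes the g4 means were 4703 and 4699 (HA-positive first in each). Summed transcripts of the mitochondrial genome, given beside these levels, had 22300 ± 5330 and 25100 ± 3030 CPM in HA-positive nuclei against 20600 ± 1680 and 21300 ± 3180 in HA-negative nuclei (empty first in each).

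Large subunit genes summed to 3064 ± 352, 3176 ± 202, 3109 ± 259 and 3223 ± 174 CPM in HA-positive nuclei with empty and with g4 and in HA-negative nuclei with empty and with g4. Small subunit genes summed to 1392 ± 233, 1453 ± 89, 1431 ± 132 and 1512 ± 154 CPM. With g4 the small subunit sum was higher in 6 of 7 animals in HA-positive nuclei (mean difference 60.3 CPM, SD 196) and in 4 of 7 in HA-negative nuclei (81.3, SD 228). The large subunit sum was higher in 4 of 7 and 5 of 7. The ratio of the sums was 2.22 ± 0.147, 2.19 ± 0.191, 2.18 ± 0.143 and 2.15 ± 0.22, and all 4 ranges overlapped.

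**Figure D1:**
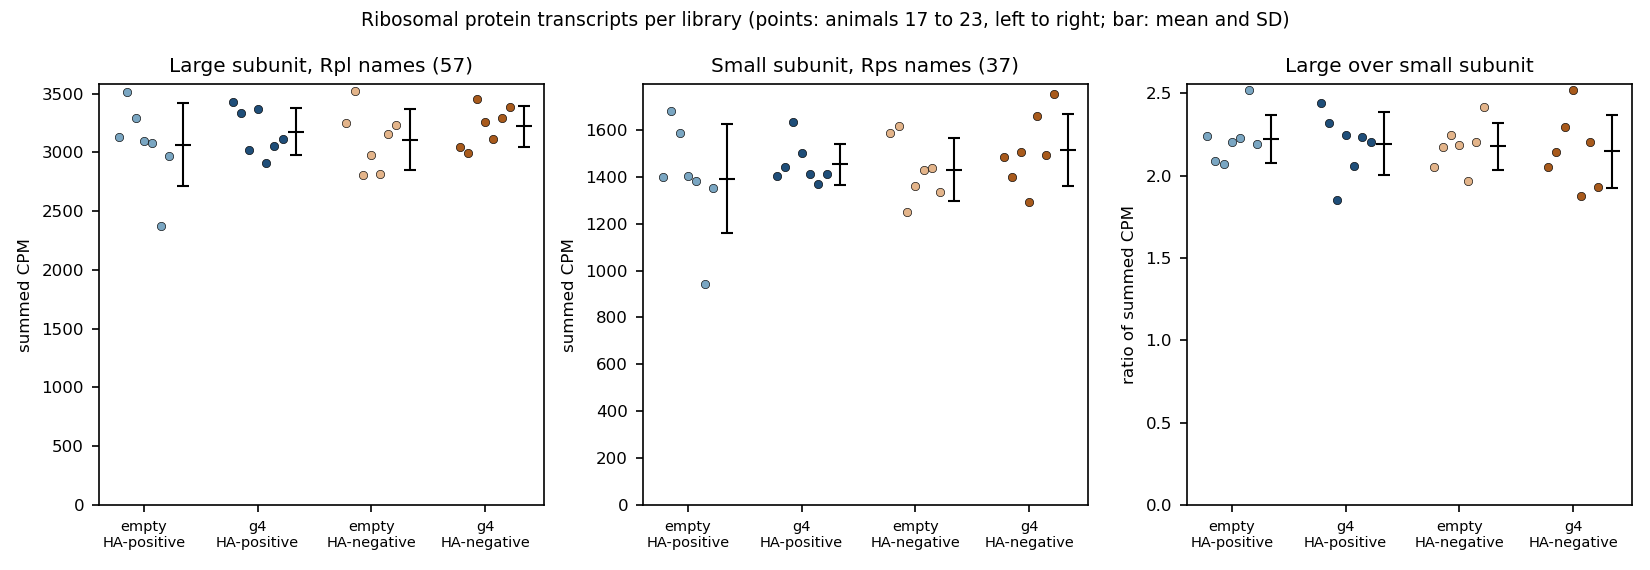
Summed CPM of large subunit genes (left) and small subunit genes (centre) and their ratio (right), with 1 point per library in the order of animals 17 to 23 and the mean and SD of 7 libraries beside each group. The groups overlap in each panel, and the empty HA-positive library of animal 22 is the lowest in both sums and the highest of its group in the ratio, at 2.52.

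Levels of single genes were compared per kilobase of annotated exon (CPM per kb). The highest was Rplp1, an acidic stalk protein, at 237.7 CPM per kb over the 28 libraries, followed by Rpl38 at 149.1 and Rpl4 at 116.5. Rpl23a (92.24), Rps29 (89.87) and Rpl24 (88.3) came next. Among tested genes the lowest were Rps19 (5.793), Rpl9 (5.387), Rpl18 (4.556) and Rpl7l1 (4.188). The range from the highest to the lowest tested gene was 56.8-fold. Without division by length the highest were Rpl4 (233.8 CPM) and Rpl3 (232), with Rplp1 at 118.6. CPM and exon length had a Spearman's rho of 0.19 over the 89 detected genes. The median was 19.3 CPM per kb, against 2.36 over all protein-coding genes with a count. The order of the genes was shared by the groups: Spearman's rho between group means over the 89 detected genes was at least 0.943, a description over genes that share libraries, lengths and mapping.

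The plot of levels per kilobase shows this order for the 63 genes tested in every comparison. Exon length here is the union of all annotated exons, so a gene with a long union, such as Rps19 with 4685 bases, gets a lower value per kilobase for the same count. Reads of the many processed pseudogenes of these genes can also be counted at the parent gene or be lost, and the sources used here do not state the counting rule for such reads.

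**Figure D2:**
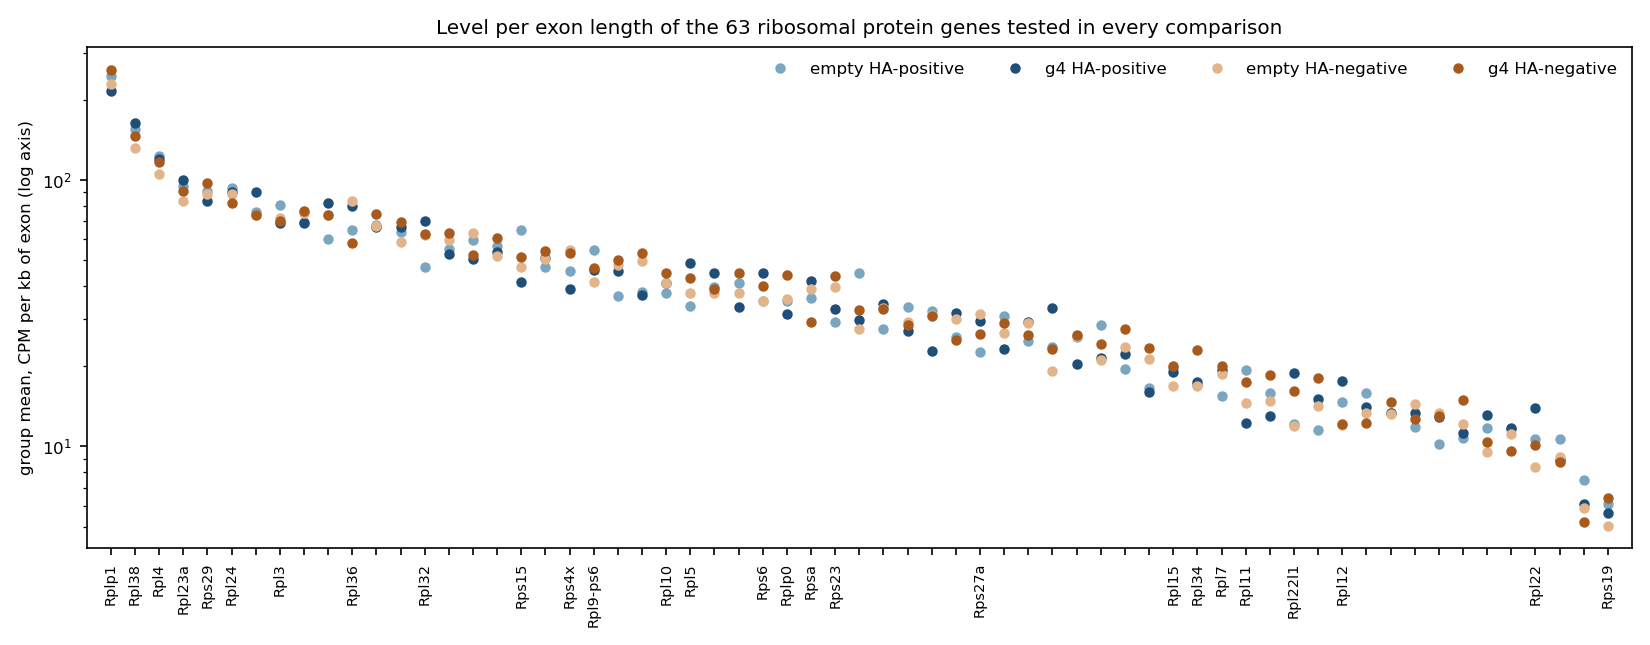
Group means in CPM per kb of exon (log axis) for the 63 ribosomal protein genes tested in every comparison, ordered by their mean, with 1 colour per group and names for genes the text describes. The 4 groups lie close together for most genes, from Rplp1 at 237.7 to Rps19 at 5.793 over all libraries.

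Introns of ribosomal protein genes are known to carry small nucleolar RNAs (snoRNAs), guides for the chemical modification of ribosomal RNA. In the GENCODE annotation 30 of the 94 genes held 58 snoRNA genes, and those snoRNA genes had 12837 counts of their own. Rpl4 held 5, Rpl5, Rpl23a and Rpsa 3 each. The 30 host genes had a median of 30.7 CPM per kb, against 15.9 for the 59 detected genes without a snoRNA. The 59 include every detected paralog and pseudogene-named gene. Some of these were near 0, such as Rpl10l (0.1154) and Rps18-ps5 (0.3208), and others high, such as Rps27rt (48.13) and Rpl9-ps6 (47.17). Their part in the gap was not tested. Whether snoRNA reads were counted at their hosts was not tested, and the sources used here do not state the strand setting or the rule for overlapping genes.

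Genes of the ribosomal stalk, which recruits elongation factors, had different levels but no called change. Rplp1 (chromosome 9, 61913284 to 61914542, GRCm38) had a lowest, median and highest level of 77.5, 113 and 193 CPM in empty HA-positive, 91.6, 104 and 128 in g4 HA-positive, 80.8, 116 and 152 in empty HA-negative and 108, 122 and 171 in g4 HA-negative libraries. The g4 over empty log2 fold change was -0.25 ± 0.229 (SE) in HA-positive and 0.16 ± 0.165 in HA-negative nuclei. Rplp0, the stalk base, had means of 58.4 ± 12.8, 52.1 ± 15.9, 59 ± 18.5 and 73.2 ± 16.9 CPM (SD, n = 7, groups in the same order). Rplp2, the partner of Rplp1, had means of 21.2 ± 22.5, 27.7 ± 11.5, 37.6 ± 9.94 and 25.5 ± 13.2 CPM. It was lower with g4 in 6 of 7 animals in HA-negative nuclei (log2 fold change -0.55 ± 0.313), which did not pass (adjusted p 0.999 by edgeR). Its empty HA-positive group spanned 2.53 to 69.8 CPM and overlapped all the others.

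Rpl5 and Rpl11 bind 5S ribosomal RNA, and the particle they form is known to restrain Mdm2 when ribosome assembly fails. Rpl5 (chromosome 5, 107900502 to 107909005) ran from 39.7 to 199 CPM in empty HA-positive libraries (median 145) and from 86.8 to 272 with g4 (median 203). The g4 library of an animal was above its empty library in 7 of 7 animals, with means of 132 ± 50.7 and 190 ± 57.7 CPM and a log2 fold change of 0.46 ± 0.246, but the groups overlapped and the adjusted p was 0.753. In HA-negative nuclei Rpl5 had 147 ± 36.3 CPM with empty and 168 ± 44.8 with g4, higher in 5 of 7 animals.

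Rpl11 (chromosome 4, 136028265 to 136053428) lay the other way in HA-positive nuclei, at 29.3 to 85.9 CPM with empty (median 43.1) and 10.2 to 52.7 with g4 (median 29.7). Its log2 fold change was -0.72 ± 0.37, lower in 5 of 7 animals (adjusted p 0.751), and the groups overlapped. In HA-negative nuclei it had 39.2 ± 13.7 CPM with empty and 47.2 ± 20.4 with g4. The difference of the vector effects between fractions was -0.96 ± 0.468 for Rpl11 (unadjusted p 0.0448, adjusted p 0.979) and 0.29 ± 0.313 for Rpl5.

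In HA-positive nuclei, g4 against empty, 0 of the 64 ribosomal protein genes with enough counts passed an adjusted p under 0.05 by edgeR, where 3 of all 5011 genes tested did (0.0599%, with 0.02% higher and 0.0399% lower). These 3, named after their values were seen, were Lrrc58 (log2 fold change 1.26 ± 0.207), Oip5os1 (-0.89 ± 0.15) and Vamp1 (-1.11 ± 0.202). At an unadjusted p under 0.05 edgeR found 1 ribosomal protein gene, Rps28, where 6.69% of all genes were found. DESeq2 and limma voom, with 0 called each, found 5 and 1. DESeq2 was fitted without the filter on low counts, here with 84 ribosomal protein genes that had an adjusted p. Its count is therefore not a share of the 64. The log2 fold changes had a median of -0.03, against -0.01 over all genes, with 31 genes higher and 33 lower (49.2% of all genes higher), and by limma voom it was 0.09. Without the animal 19 library edgeR called 5 of 4887 genes and 0 of 62 ribosomal protein genes, whose median was -0.005. None of the 64 had groups that did not overlap, against 0.18% of all genes. Total counts were 422849 ± 134411 with empty and 569800 ± 235622 with g4, and summed astrocyte markers 824 ± 246 and 1330 ± 440 CPM. Their part in these values was not tested. For 40 of the 64 the 95% interval lay within 1 log2 unit (2-fold) of 0, as for 57% of all genes. Narrower intervals belonged to genes with more counts, such as Rpl4, a core protein of the large subunit, with -0.09 with an interval from -0.41 to 0.24.

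**Figure D3:**
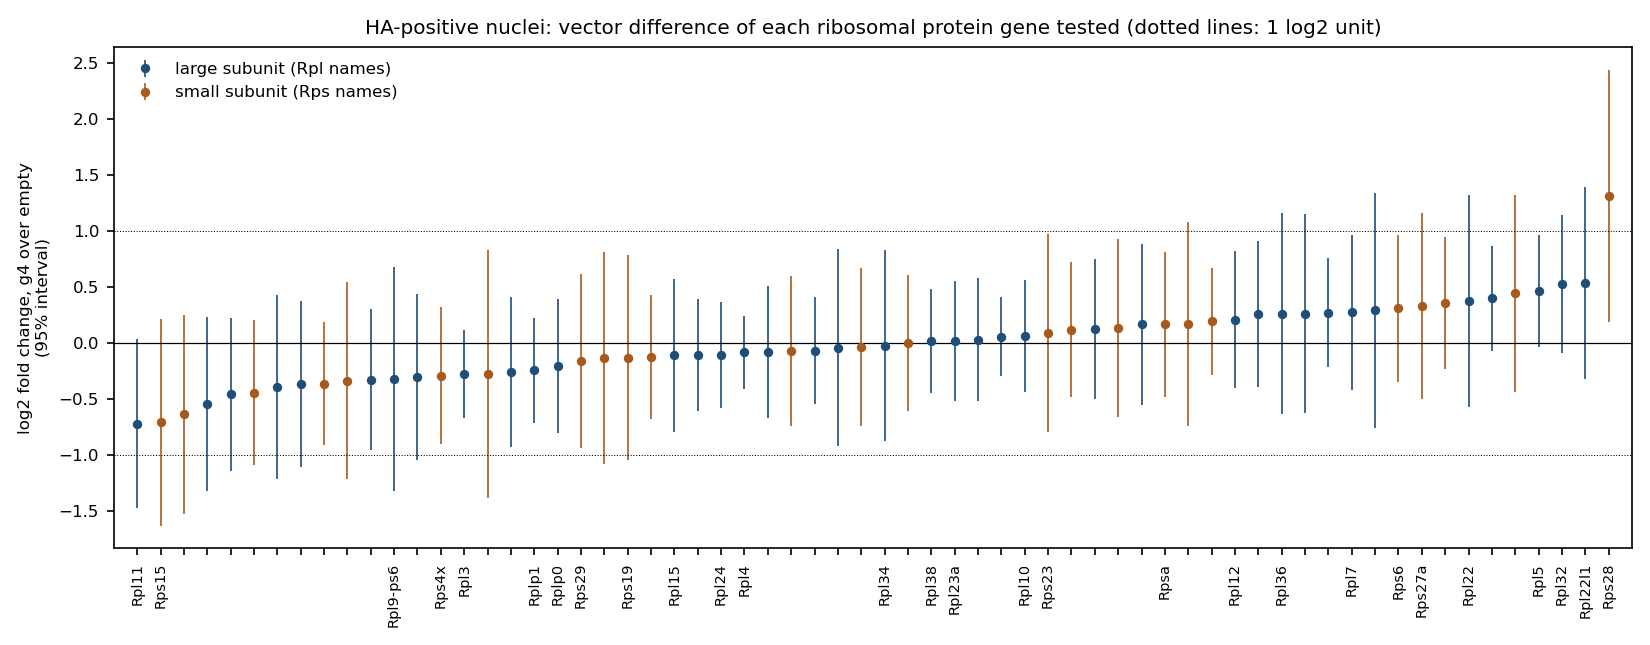
Log2 fold change of g4 over empty in HA-positive nuclei with its 95% interval (edgeR) for the 64 ribosomal protein genes tested, ordered by size and coloured by subunit, with names for genes the text describes. Every interval but that of Rps28 includes 0, and 40 of the 64 stay within the dotted lines at 1 log2 unit.

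Rps28 (chromosome 17, 33819027 to 33824562), a small protein near the messenger RNA exit of the small subunit, had the largest value. By animal 17 to 23 its levels were 9.917, 30.77, 16.5, 19.53, 25.28, 0 and 3.591 CPM in empty HA-positive libraries and 43.42, 22.97, 118.8, 12.3, 23.73, 24.79 and 29.82 with g4. The g4 library of animal 19, the one that holds Xist and Y-linked transcripts, was far above the rest with 109 counts, and the groups overlapped. The means were 15.1 ± 11.2 and 39.4 ± 36.2 CPM, or 26.2 ± 10.2 with g4 without that library (n = 6), and the log2 fold change was 1.31 ± 0.552, higher in 4 of 7 animals (adjusted p 0.729). Without that library Rps28 did not pass the low-count filter of this comparison. In HA-negative nuclei Rps28 had 26.2 ± 8.69 CPM with empty and 21.7 ± 17.9 with g4.

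The next largest among the genes tested were Rpl22l1, a paralog of the RNA-binding protein Rpl22, and Rpl32. Rpl22l1 had 24.1 ± 11.8 CPM with empty and 37.3 ± 13.5 with g4 (log2 fold change 0.54 ± 0.422), and Rpl32 had 45.4 ± 17.7 and 67.6 ± 12.8 (0.53 ± 0.301, higher in 6 of 7 animals). On the low side, after Rpl11, stood Rps15, a small subunit gene, with 40.8 ± 18 and 26 ± 12.3 CPM (-0.71 ± 0.452). Neither direction gathered genes of 1 subunit, and all of these groups overlapped.

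In HA-negative nuclei, g4 against empty, 0 of 74 ribosomal protein genes and 0 of 6262 genes in all (0%) passed by edgeR, and DESeq2 and limma voom called 0 of the ribosomal protein genes. At an unadjusted p under 0.05 edgeR found 2, DESeq2 3 (unfiltered, 86 with an adjusted p) and limma voom 3, against 3.77% of all genes by edgeR. The median log2 fold change was 0.11, against -0.00 over all genes, and 47 of the 74 were higher with g4, where 49.2% of all genes were. None had groups that did not overlap, against 0.0639% of all genes. The median fell to 0.05 without animal 19 and to 0.06 without animal 21. Each of these genes failed the test, and 66 of the 74 intervals lay within 1 log2 unit of 0 (80.4% of all genes). Summed microglia markers were 348 ± 105 CPM with empty and 422 ± 84.3 with g4, and the median log2 fold change of 5 tested microglia markers was 0.37. Their part in the median was not tested.

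The 2 genes below an unadjusted p of 0.05 were both lower with g4. Rpl27 (chromosome 11, 101442298 to 101445529), a large subunit protein, had a lowest, median and highest level of 13.5, 21.9 and 40.9 CPM with empty and 0, 10.3 and 22.3 with g4. Its means were 26.2 ± 10.6 and 11.6 ± 7.92 CPM, with a log2 fold change of -1.13 ± 0.43, lower in 6 of 7 animals (adjusted p 0.999), and the groups overlapped. It rested on 0 to 20 counts per library. Rpsa (chromosome 9, 120127689 to 120132369), a small subunit protein that also acts as a laminin receptor, had 81.8, 125 and 186 CPM with empty and 69.1, 94 and 122 with g4. The log2 fold change of Rpsa was -0.42 ± 0.181 with an interval from -0.78 to -0.05 (adjusted p 0.999), lower in 5 of 7 animals.

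The largest values on the high side were Rpl34 (44.3 ± 21.4 and 61.1 ± 26.5 CPM, log2 fold change 0.47 ± 0.29), Rpl22l1 (23.6 ± 8.84 and 32 ± 9.83, 0.41 ± 0.327, higher in 6 of 7 animals) and the retrogene Rps27rt (18.8 ± 20 and 22.5 ± 12.4, 0.35 ± 0.596, but 1.29 by limma voom and 0.62 with the animal as a block). Rpl36, on the low side, had 31.8 ± 9.88 and 22.2 ± 12.8 CPM (-0.54 ± 0.34, lower in 6 of 7). Rpl22l1 was thus among the 3 highest tested genes in both fractions, at adjusted p 0.862 and 0.999, from libraries of the same animals but different nuclei. In HA-positive nuclei Rps27rt did not pass the low-count filter of the vector comparison and was not tested. It had 7.07 ± 10.1 CPM with empty (4 of 7 libraries at 0) and 23.6 ± 12.2 with g4 (0 of 7 at 0) there.

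The test of whether the vector difference itself differed between fractions, over all 28 libraries, called 0 of 80 ribosomal protein genes and 0 of 7197 genes (0%) by edgeR. At an unadjusted p under 0.05 it found 3 (Rps28, Rpl7l1 and Rpl11), against 4.99% of all genes. DESeq2 (unfiltered, 89 with an adjusted p) and limma voom, with 0 called each, found 4 and 7. The median was -0.05, against 0.03 over all genes, and 36 of the 80 were above 0, against 53.2% of all genes. By limma voom the median was 0.01, and by edgeR without the animal 19 library of g4 HA-positive nuclei it was -0.08. Intervals here were wider, with 26 of 80 within 1 log2 unit of 0 (27.9% of all genes). The median interval reached 0.89 log2 units to either side of its estimate.

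Rps28 had the smallest p, with a value of 1.67 ± 0.695 (adjusted p 0.924), and 1.04 with an adjusted p of 0.999 once the animal 19 library of g4 HA-positive nuclei was left out. Rpl9 (1.76 ± 0.891) and Rpl36a (1.67 ± 0.881) had values at least as large, at levels of 25.2 ± 14.7 CPM or less. Without the animal 19 library their values were 1.76 and 1.42 (adjusted p 0.999 each). Rps28 had 26.2 ± 10.2 CPM in the remaining g4 HA-positive libraries. Rpl7l1, a paralog of Rpl7 that is known from early ribosome assembly, had 7.38 ± 8.78, 22.4 ± 8.41, 15.3 ± 8.91 and 13.5 ± 4.42 CPM in HA-positive nuclei with empty and with g4 and in HA-negative nuclei with empty and with g4. It was at 0 in 3 of 7 empty HA-positive libraries, and its value was 1.65 ± 0.811 (adjusted p 0.979).

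**Figure D4:**
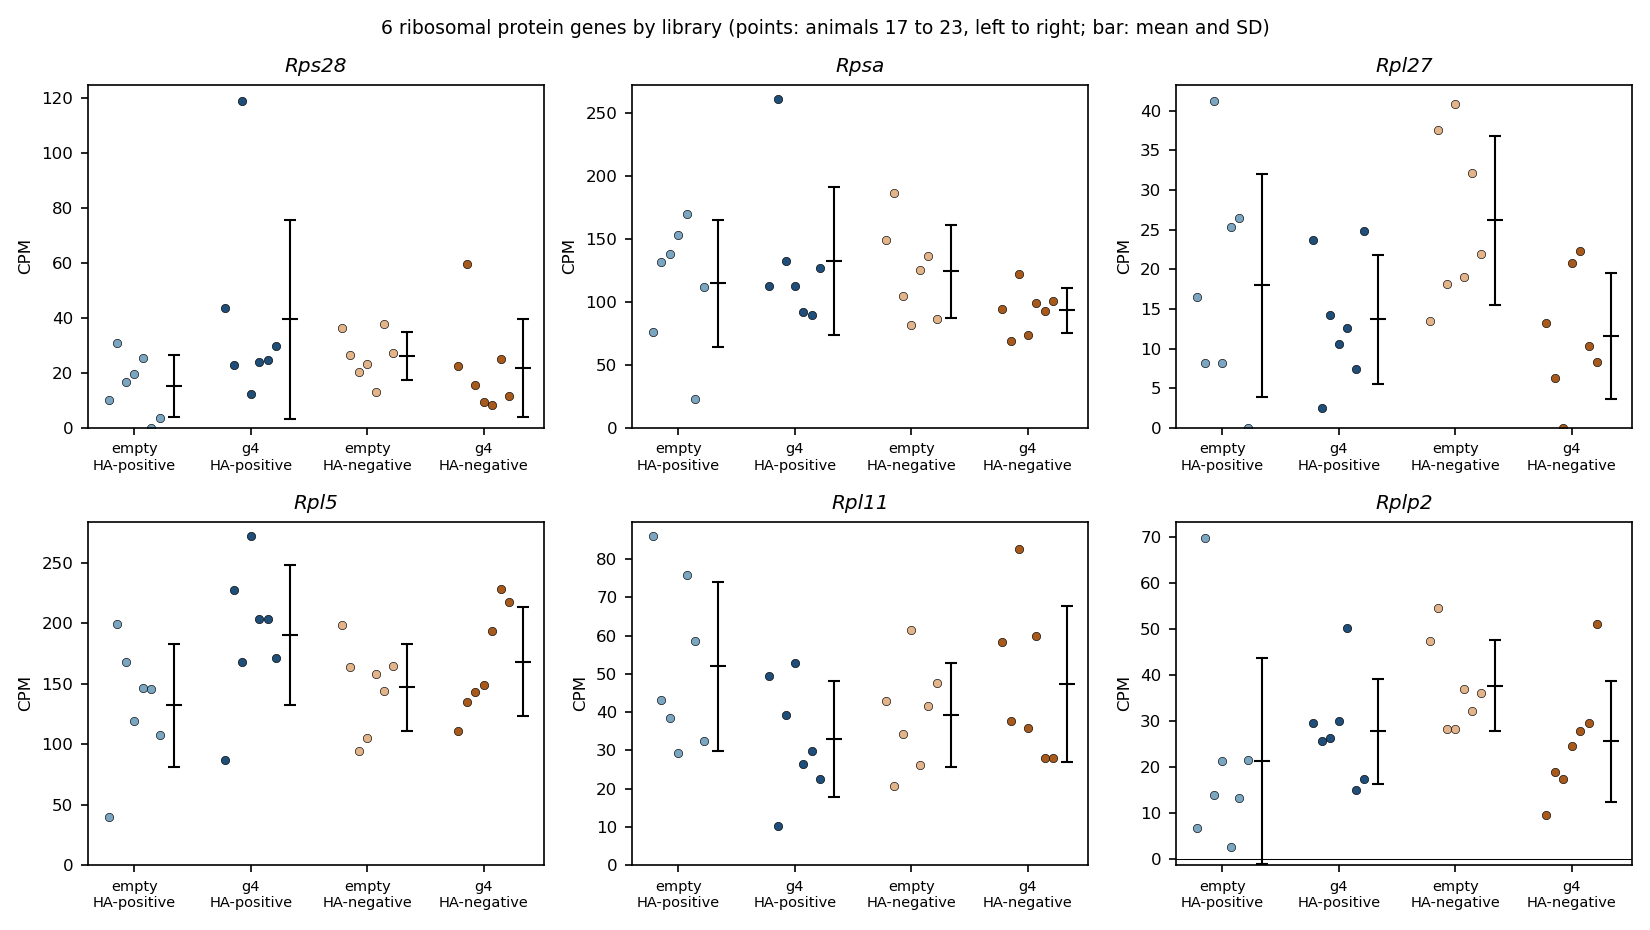
CPM of Rps28, Rpsa, Rpl27, Rpl5, Rpl11 and Rplp2 in each library, with points in the order of animals 17 to 23 and the mean and SD of 7 libraries beside each group (1 SD bar of Rplp2 reaches below 0). The groups overlap in all 6 panels, and single libraries stand far above their groups, such as 118.8 CPM for Rps28 (animal 19), 260.4 for Rpsa (animal 18) and 69.8 for Rplp2 (empty, animal 18).

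Between fractions, many other genes differed while ribosomal protein genes were not called. With the empty vector 388 of 5538 genes tested (7.01%, with 3.5% higher and 3.5% lower) passed by edgeR and 0 of the 70 ribosomal protein genes did. At an unadjusted p under 0.05 edgeR found 0 of them, against 19.2% of all genes. DESeq2 (unfiltered, 84 with an adjusted p) and limma voom, with 0 called each, found 0 and 2. In the same fit 6 of 7 tested inhibitory neuron markers were called higher and 5 of 5 tested microglia and 5 of 5 tested oligodendrocyte markers lower in HA-positive nuclei. Among the ribosomal protein genes the median was 0.08 on the log2 scale, against 0.01 over all genes (-0.04 by limma voom), with 41 of 70 above 0 (50.9% of all genes). Their quartiles were -0.20 and 0.25, against -0.31 and 0.31. For 42 of the 70 the interval lay within 1 log2 unit of 0, as for 49.8% of all genes. None of the 70 had groups that did not overlap, where 3.05% of all genes did.

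Among the wide gaps with the empty vector were Rps15 (40.8 ± 18 CPM in HA-positive and 29.6 ± 8.5 in HA-negative nuclei, log2 fold change 0.53 ± 0.365) and Rpl11 (0.48 ± 0.335) on the high side. On the low side stood Rplp2 (-0.75 ± 0.452, lower in 6 of 7 animals), Rps16 (17.7 ± 11 and 27.2 ± 11.7, -0.58 ± 0.464, lower in 6 of 7) and Rpl27 (-0.45 ± 0.505). The smallest adjusted p was 0.317, for Rpl4, which had 247 ± 46.2 CPM in HA-positive and 212 ± 29.2 in HA-negative nuclei (0.28 ± 0.15) and was named after its p was seen.

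With g4, 401 of 6264 genes (6.4%, with 3.32% higher and 3.08% lower) passed between fractions and 0 of 74 ribosomal protein genes did by edgeR. At an unadjusted p under 0.05 edgeR found 4, against 17.4% of all genes. DESeq2 (unfiltered, 85 with an adjusted p) and limma voom, with 0 called each, found 7 and 7. Their median log2 fold change was -0.06, against 0.01, with 30 of 74 above 0 (50.6% of all genes), and 56 of 74 intervals lay within 1 log2 unit of 0 (62.5% of all genes). None had groups that did not overlap, against 1.76% of all genes. Without animal 18 Rps28 was called (adjusted p 0.0479), and this was the single call among the alternatives tried. With the animal 19 library of g4 HA-positive nuclei left out as well, an alternative chosen after seeing the data, Rps28 was not called (0.78, adjusted p 0.322).

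Among the genes with an unadjusted p under 0.05, Rpsa and Rps28 were higher in HA-positive nuclei. Rpsa had 132 ± 58.7 CPM against 93 ± 17.8 in HA-negative nuclei (0.51 ± 0.213 on the log2 scale, with 5 of 7 animals higher and an adjusted p of 0.183), and its HA-positive library of animal 18 stood alone at 260.4 CPM. In the fit without animal 18 and without the animal 19 library, Rpsa had 0.12 (adjusted p 0.795). Rps28 had a value of 0.98 ± 0.47 (adjusted p 0.278), and 0.35 with an adjusted p of 0.751 without the HA-positive library of animal 19. Rps4x, the X-linked form of a small subunit protein, was lower, and was named after its values were seen. Rps4x had 63.4 ± 11.6 against 87.1 ± 27.7 CPM (-0.47 ± 0.216, lower in 6 of 7, adjusted p 0.245).

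Other wide gaps with g4 were Rps14 (24 ± 14.5 against 15.4 ± 8.02 CPM, 0.61 ± 0.416) and Rpl12 (63.5 ± 18.4 against 43.6 ± 13.5, 0.52 ± 0.262) on the high side. Rps16 (15.4 ± 13.2 against 29.5 ± 12, -0.94 ± 0.462) and Rpl37a (15.8 ± 9.74 against 26.7 ± 13.3, -0.80 ± 0.441) stood on the low side. Rps16 was lower in HA-positive nuclei in 6 of 7 animals with either vector, from different hemispheres of the same animals, with adjusted p-values of 0.546 and 0.29.

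**Figure D5:**
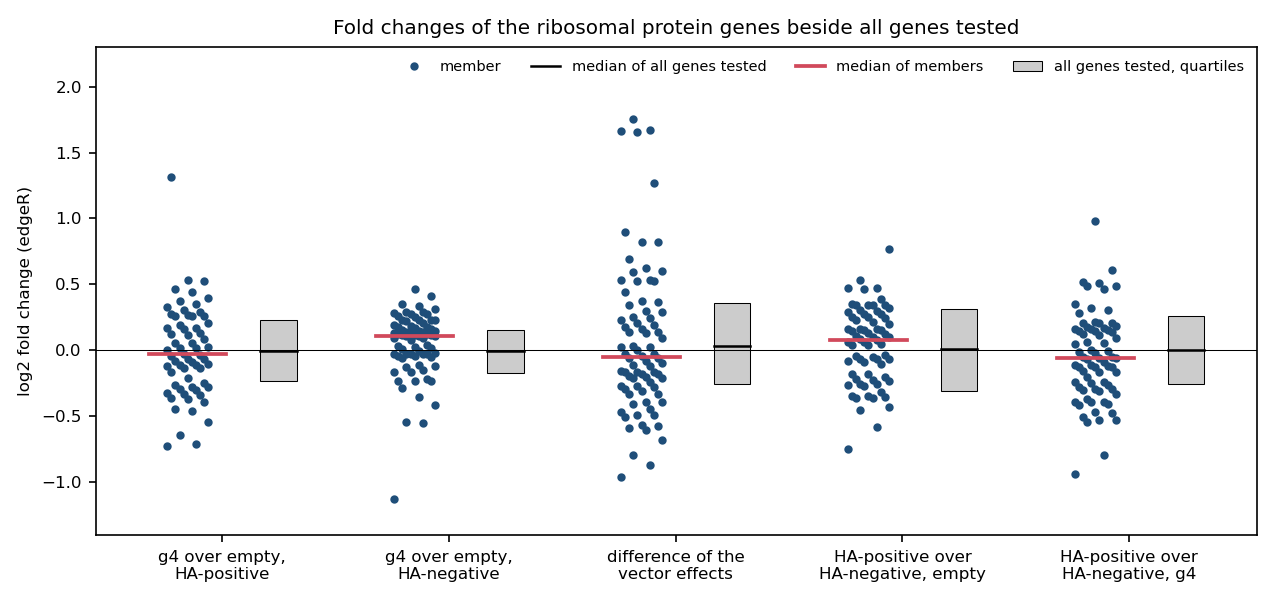
Log2 fold changes (edgeR) of the ribosomal protein genes tested in the 5 comparisons, 1 point per gene with the median as a red line, beside the quartiles (grey box) and median (black line) of all genes tested. The medians of the ribosomal protein genes are -0.03, 0.11, -0.05, 0.08 and -0.06 from left to right, and 0 genes were called in any of the 5.

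Other members with fixed roles were also uncalled in every comparison. Rps6, the target of S6 kinases, had 55.8 ± 30.5, 71.1 ± 14.3, 55.7 ± 22.8 and 63.5 ± 10.5 CPM in HA-positive nuclei with empty and with g4 and in HA-negative nuclei with empty and with g4 (log2 fold change with g4 of 0.31 ± 0.323 and 0.17 ± 0.239 in HA-positive and HA-negative nuclei). Rps27a, made as a fusion with ubiquitin, had 44.7 ± 31.5, 58.1 ± 23.4, 62.1 ± 12 and 52.2 ± 21.2 CPM.

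Paralogs and copies differed in how much of the signal they took. Rpl22l1 was about as high as its parent Rpl22, with 14.7 and 10.74 CPM per kb over all libraries. Rpl36al had 13.15 CPM per kb and its parent Rpl36a, on the X chromosome, 6.951. The retrogene Rps27rt had 48.13 CPM per kb, while Rps27 had 5.696 and Rps27l 4.159. Likewise Rpl9-ps6 had 47.17 CPM per kb over all libraries, against 5.387 for Rpl9. In CPM these gaps were narrower, at 18 for Rps27rt against 5.941 for Rps27 and 33.68 for Rpl9-ps6 against 16.6 for Rpl9. The copies have shorter exon unions, with 374 bases against 1043 for Rps27 and 714 against 3081 for Rpl9. Rpl10-ps3 had 103 counts in all and was at 0 in 20 of 28 libraries, with up to 34.9 CPM in the rest. With g4 it had 46 counts in HA-positive and 48 in HA-negative nuclei (4 of 7 libraries at 0 in each). With empty it had 4 and 5 (6 of 7 at 0 in each). This gene was too low to be tested in any comparison. Rps19bp1 had 97 counts, while Rps19 had 411. Near-identical copies can take each other's reads, so the split between a gene and its copy is uncertain.

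Genes that work with ribosomal proteins were described from lists. Fau and Rack1, subunits outside the name rule, were tested in all 5 comparisons and called in none. Fau, made as a fusion with a ubiquitin-like protein, had 85.4 ± 27.9 CPM with g4 and 101 ± 34.4 with empty in HA-positive nuclei (log2 fold change -0.29 ± 0.273). Of 10 elongation factors 8 to 9 were tested and 0 called. Eef1a1, the main carrier of aminoacyl-tRNA, had 624 ± 79.6 CPM with empty and 706 ± 80.2 with g4 in HA-negative nuclei (0.17 ± 0.0993). Of 36 initiation factors 26 to 32 were tested, and Eif4g2, a scaffold for cap-independent initiation, was the single gene called. Eif4g2 was 1 of 26 factors tested between fractions with empty and 1 of 30 with g4, where 7.01% and 6.4% of all genes were called. It was higher in HA-positive nuclei in 7 of 7 animals with either vector, at 601 ± 59.6 against 455 ± 40.1 CPM with empty (0.46 ± 0.115, adjusted p 0.0101) and 604 ± 67.5 against 468 ± 33.3 with g4 (0.38 ± 0.107, adjusted p 0.0252).

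Of 45 ribosome biogenesis factors 15 to 29 were tested and 0 called in any comparison. Polr1a, the large subunit of RNA polymerase I, had 16.6 ± 3.45 CPM with g4 and 38.6 ± 26.9 with empty in HA-positive nuclei (-1.29 ± 0.443, adjusted p 0.619). Gnl3l, a nucleolar GTPase, had 227 ± 37.4 CPM in HA-positive and 176 ± 29.3 in HA-negative nuclei with g4 (0.38 ± 0.146, adjusted p 0.135). Of 23 regulators of TOP translation and of the 5S particle 13 to 16 were tested and 0 called. Larp1, the TOP-binding repressor, was higher in HA-positive nuclei in 7 of 7 animals with g4, at 107 ± 16.6 against 73.5 ± 15 CPM (0.54 ± 0.191, adjusted p 0.0872). Tial1, an RNA-binding protein, had 78.2 ± 8.84 CPM with g4 and 46.6 ± 17.9 with empty in HA-positive nuclei, higher in 7 of 7 animals (0.69 ± 0.278, adjusted p 0.718). Host transcripts of snoRNAs outside the ribosomal protein genes had 5 to 6 tested and 0 called.

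Mitochondrial ribosomal protein genes, which serve the separate ribosome of mitochondria, were the nearest related family. Of 78 such genes 11 to 28 were tested, and 0 were called in any comparison. With g4 against empty their median was -0.12 in HA-positive nuclei (10 of 12 lower) and -0.12 in HA-negative nuclei (9 of 14 lower). In each of these fits 49.2% of all genes were higher. Between fractions their medians were 0.35 with empty (10 of 11 higher in HA-positive nuclei) and 0.32 with g4 (18 of 22 higher). The cytosolic genes had 0.08 and -0.06 there, and all genes tested had 0.01 and 0.01, with 50.9% and 50.6% higher. Single values did not pass, as for Mrps5 with 38.7 ± 19 against 19.8 ± 13.6 CPM with empty (1.00 ± 0.485, adjusted p 0.256). The difference between the sets was not tested.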

How the data were processed

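RNA of sorted nuclei was sequenced in 28 libraries. The authors deposited raw counts per gene, aligned to GRCm38 per the submitters' processing notes. The sources used here do not state the aligner, counting program, annotation, strand setting or any use of molecular identifiers. Cells without a value were read as 0, and 1 of 41550 entries, which names no gene and holds 0 counts, was left out. Groups came from the sample titles, and sample descriptions tied samples to columns, since for 3 animals the column number differs from the title.

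Genes were tested with edgeR 4.0.16 (filterByExpr by group, TMM factors, robust quasi-likelihood fit, two-sided, R 4.3.3) over all genes in 5 comparisons, with Benjamini-Hochberg adjustment and calls at adjusted p under 0.05. The main fits held no term for the animal, so their SE and p-values do not use the pairing of libraries. Fits with the animal as a block were an alternative. Adjusted p-values are edgeR's where no tool is named. DESeq2 1.42.0 and limma 3.58.1 (voom) were alternatives, and the pipeline was tested on simulated data. DESeq2 was fitted without filterByExpr and so on more genes. Shares of all genes at an unadjusted p are edgeR's. CPM were scaled with TMM factors over 28 libraries. Values are means ± SD (n = 7), and fold changes are given ± SE. Positions and exon lengths came from GENCODE M21, in which all 94 genes matched, and start sequences from RefSeq (GRCm38.p6).

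The members and gene lists were chosen with earlier results of these data known. Genes named were, per comparison, the 3 largest and 3 smallest fold changes with at least 5 CPM in the higher group, the 6 highest and 4 lowest tested levels per length, genes at 0, paralogs with their parents, genes of fixed roles (stalk, 5S particle, Rpsa, Rps6, Rps27a), and the genes of lowest p of each list.

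Libraries with the same number come from the same animal, per the labels. Deviations of such libraries from their group means correlated weakly (median r 0.0305 to 0.0554 over 5849 genes). Libraries are of separate animals within a group, and whether any pooling took place is not given. Results of a few genes are not reported here, although the counts and sums include them.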

Additional observations from a re-analysis of the deposited data

Results flagged for a closer look

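In 174 groups of 7 libraries, each a gene or ratio in 1 of the 4 groups, 20 held a library that stood far from the other 6, measured by its gap to the nearest library as a share of the group's range. If values were normally distributed, about 1 in 20 groups would hold such a library by chance. Many of these groups rest on low counts, and some genes were chosen for their fold changes in these libraries. Whether 20 is more than chance gives was therefore not tested. Of the 20, 19 are given here. Values are in CPM, with the range of the other 6 libraries.

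In g4 HA-positive nuclei, the library of animal 18 was far above the rest for Rpsa (260, others 89.2 to 132), Rpl22 (99.6, others 17.4 to 44.6) and Rpl36al (45.9, others 7.9 to 22.3), and far below for Rps15 (0, others 25.7 to 39.3). The library of animal 19 was far above for Rps28 (119, others 12.3 to 43.4), that of animal 20 for Rps14 (56.2, others 14 to 22.4) and that of animal 21 for Rplp2 (50.2, others 14.9 to 29.9).

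Empty HA-positive libraries stood apart for Rplp2 in animal 18 (69.8, others 2.53 to 21.5), Rpl36al in animal 21 (60.7, others 6.61 to 29.3), Rps19bp1 in animal 22 (26.4, others 0 to 9.92) and the ratio of large to small subunit genes in animal 22 (2.52, others 2.07 to 2.24).

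In empty HA-negative nuclei, Rpl3 was low in animal 17 (144, others 217 to 261) and Rps27a in animal 19 (38.2, others 59.4 to 74.4). High libraries there were those of animal 17 for Rpl39 (51.9, others 7.67 to 25.8), animal 18 for Rpl38 (124, others 47.5 to 78.9) and animal 23 for Rps19 (34.8, others 20.1 to 26.1). In g4 HA-negative nuclei the library of animal 20 was high for Rpl36 (49.1, others 9.4 to 23.6) and Rpl36al (28.3, others 2.95 to 13.9), and that of animal 18 for Rps28 (59.6, others 8.35 to 25).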

How the results depend on the processing

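Of 82 fits, 81 called 0 ribosomal protein genes. The exception was the comparison of fractions with g4 without animal 18, where leaving out 1 animal at a time gave 0 to 1 called, the 1 being Rps28. At an unadjusted p under 0.05 the fits found 0 to 10. With the animal as a block, 0 were called in each of the 5 comparisons, so that the block changed no call, and the medians were 0.05, 0.11, -0.02, -0.02 and -0.08, in the order of the plot of fold changes. The signs of the medians near 0 thus depended on the setting. Single genes were also refitted under other tools, scaling, the block, without ribosomal RNA genes, and without the animal 19 library of g4 HA-positive nuclei. For the fractions with g4 a further fit left out that library and animal 18 together. Leaving out animal 18 alone was not among these settings. Genes that failed the low-count filter of a setting have no value there, such as Rps28 (g4 against empty, HA-positive nuclei) without the animal 19 library. All 203 recomputed values of single genes kept their direction and stayed uncalled. By limma voom some moved by over 1.5 times, to 2.75 for Rpl9 (difference of vector effects), -0.78 for Rpl27 (fractions, empty), and -1.57 for Rps16 and -1.20 for Rpl37a (fractions, g4). The same held for Rps16 without animal 18 and the animal 19 library, at -0.59. Without ribosomal RNA genes the summed levels were 6206, 6421, 6282 and 6447 CPM (empty and g4 HA-positive, then empty and g4 HA-negative), and scaled to protein-coding counts alone 7717, 7915, 7796 and 8134, since the denominator is smaller. Without Rpl4, the gene with the most counts, the g4 HA-positive sum was 4387. Ratios of large to small subunit genes moved by less than their SD under the alternatives tried. Precision was limited by a median of 22.5 counts per library, and the median 95% interval reached 0.67, 0.50, 0.89, 0.66 and 0.56 log2 units to either side of its estimate in the same order.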
